A study of Rattus norvegicus with 6 samples.

Results

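Interferon-stimulated genes are the genes that cells switch on when an interferon binds its receptor. A list of 44 of them was followed in arthritic rat synovium with and without triptolide, and a gene counted as measured where the gene name given on the array matched it. By that rule 38 of the 44 genes had a probe, 48 probes in all out of 41012 on the array. Of these, 36 genes could be tested, meaning that some probe of theirs exceeded the scanner's background limit (called well above background in the files) on 3 or more of the 6 arrays. All in all, 25772 probes met that limit and entered the same fit. The 36 comprise 9 genes that lean towards type I interferon (the Ifit, Mx and Oas families and Isg15), 5 that lean towards interferon gamma (the Gbp family, Irf1 and Igtp), 3 transcription factors, 5 sensors of foreign nucleic acid or partners of them, 5 genes of the ISG15 and ubiquitin systems, 4 membrane restriction factors and 5 other effectors. Ifit1 and Oas1b had probes that were not well above background on any array and stayed untested. Oas1g, Oas2, Oas3, Gbp1, Ifi44l and Xaf1 matched no probe by name.

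The tissue was synovium from the hind ankle joints of male rats aged 8 weeks, in which arthritis was induced with Freund's complete adjuvant, 0.1 ml injected every day over 18 days. Triptolide, a diterpenoid from the vine Tripterygium wilfordii, was given to one group at 0.4 mg/kg per day over 14 days (3 arrays, triptolide 1 to 3), and the other group received saline over the same 14 days (3 arrays, arthritis 1 to 3). Both groups carry the adjuvant arthritis, no healthy synovium was analysed here, and the strain is not given in the sources used here. The labels number the replicates without saying that each came from a separate animal, so p-values measure only the spread between these samples, which may be technical.

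Levels are log2 processed intensities relative to the 75th percentile of the same array, so that 0 is that percentile, and differences are triptolide minus arthritis on this log2 scale. Between 59.6% and 65.1% of spots were well above background, with the lowest share on triptolide 1, and no spot was saturated. Slide 1 held arthritis 1 to 3 and triptolide 1, and slide 2 held triptolide 2 and 3. Tissue markers differed between arrays. Relative to their 6-array mean, the 11 tested skeletal muscle markers averaged 0.98, -3.19 and 1.98 on triptolide 1, 2 and 3. On arthritis 1, 2 and 3 they averaged -3.86, 8.19 and -4.11, and 5 of the 11 were not well above background on every array. The 7 nerve and 5 smooth muscle markers lay on average 2.45 and 2.43 above their 6-array means on triptolide 2. All 12 listed synovial fibroblast markers were tested, among them Prg4, which encodes the joint lubricant lubricin. Of the B and plasma cell markers, Ms4a1 and Cd79a were not well above background on any array.

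Interferons fall into types with separate receptors. Type I interferons signal through JAK1 and TYK2 to a complex holding STAT2 and IRF9 that binds the interferon-stimulated response element (ISRE), whereas interferon gamma signals through JAK1 and JAK2 to gamma-activated sites (GAS) and induces IRF1, which itself acts on ISREs. Many target genes therefore answer to both, and type I or gamma-leaning describes a tendency, not an exclusive response. In inflamed joints interferon gamma comes mainly from T and NK cells, and interferon signatures are a known feature of arthritic synovium.

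The promoters of the members carry these elements to different degrees, and 6 are shown because they stand for the type I and gamma-leaning genes that the results turn on. RefSeq promoter sequences (build GRCr8) were on hand for 33 of the 44 genes. The ISRE was searched as GAAA, any 2 bases, then GAAA, and the GAS as TTC, any 3 bases, then GAA, on both strands of the 250 bases before the gene start. The ISRE was found in 23 of the 33 promoters (69.7%), against 3.41% of 33469 promoters of the same length. The GAS was found in 9 of the 33 (27.3%), against 7.67% of all, and 7 promoters held both. Among type I genes 6 of 8 held an ISRE and 2 a GAS, and among gamma-leaning genes 5 of 6 held an ISRE and 2 a GAS. A match is a run of letters, not a shown binding site, and the 2 motifs did not overlap in the promoters printed here. Each sequence is the 200 bases before the gene start, read 5′ to 3′ along the gene, with ISRE and GAS matches in capitals. TTTC at both ends marks an ISRE read from the opposite strand, and the long run in Oas1a is a pair of overlapping ISREs.
Ifit3 (chr1:241527126-241527325 on the plus strand): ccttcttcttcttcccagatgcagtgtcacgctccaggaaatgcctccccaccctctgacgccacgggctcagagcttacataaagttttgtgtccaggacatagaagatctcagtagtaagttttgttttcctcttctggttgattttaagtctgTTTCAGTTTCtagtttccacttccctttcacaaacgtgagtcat
Oas1a (chr12:41330266-41330465 on the plus strand): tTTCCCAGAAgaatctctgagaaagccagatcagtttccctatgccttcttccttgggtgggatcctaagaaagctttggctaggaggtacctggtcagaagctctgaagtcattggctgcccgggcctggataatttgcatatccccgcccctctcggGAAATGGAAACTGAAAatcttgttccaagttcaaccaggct
Gbp2 (chr2:234005527-234005726 on the plus strand): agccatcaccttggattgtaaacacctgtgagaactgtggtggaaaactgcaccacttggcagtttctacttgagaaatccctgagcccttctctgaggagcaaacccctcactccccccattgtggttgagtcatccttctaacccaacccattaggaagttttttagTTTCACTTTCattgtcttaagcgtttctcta
Gbp5 (chr2:233910799-233910998 on the plus strand): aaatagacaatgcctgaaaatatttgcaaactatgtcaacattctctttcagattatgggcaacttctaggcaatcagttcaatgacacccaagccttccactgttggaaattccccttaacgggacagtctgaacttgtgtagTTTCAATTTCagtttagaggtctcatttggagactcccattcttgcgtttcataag
Irf1 (chr10:38417735-38417934 on the plus strand): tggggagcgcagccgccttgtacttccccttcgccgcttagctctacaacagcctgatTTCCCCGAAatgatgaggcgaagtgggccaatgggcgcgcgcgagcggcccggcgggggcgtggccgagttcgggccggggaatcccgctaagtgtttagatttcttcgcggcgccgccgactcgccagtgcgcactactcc
Igtp (chr10:42874847-42875046 on the plus strand): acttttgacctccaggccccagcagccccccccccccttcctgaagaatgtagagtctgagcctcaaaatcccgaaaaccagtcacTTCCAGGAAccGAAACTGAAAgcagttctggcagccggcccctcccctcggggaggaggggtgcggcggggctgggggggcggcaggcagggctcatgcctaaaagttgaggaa

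Set against these letters, Irf1 showed a GAS and no ISRE, Igtp showed a GAS beside an ISRE, and Gbp2 and Gbp5 showed an ISRE alone. Ifit3 showed an ISRE alone, and Oas1a a GAS far from its ISRE pair. Both motifs thus occurred in both classes.

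On average the interferon-stimulated genes stood higher with triptolide than in arthritis, but the triptolide arrays differed from one another by more than the groups did. Of the 36 tested genes, 32 had a difference above 0, where 53.9% of all tested probes did, with a median of 0.43 against 0.0226 over all probes and a range of -0.22 to 1.49. By limma, 0 of the 36 passed an adjusted p under 0.05 (0.0% of all probes passed) and 0 passed an unadjusted p under 0.05 in either direction (2.0% of all probes were higher and 1.23% lower at that level). The adjusted p-values of the 36 lay between 0.994 and 0.999.

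The spread followed one pattern for most members. Triptolide 1 was the highest of the 6 arrays for 33 of the 36 genes, where it was highest for 18.4% of all probes, and triptolide 2 was the lowest for 27, where it was lowest for 24.0% of all probes. Triptolide 1 lay above all 3 arthritis arrays for 33 genes (27.9% of all probes). Triptolide 3 lay above all 3 for 23 genes (29.2% of all probes) and below all 3 for 2 (20.1%). The range within the triptolide group exceeded the size of the difference for 36 of 36 genes (85.6% of all probes), and it exceeded the range within the arthritis group for 33 (51.2%). Its median was 1.86 for these genes, against 0.565 within arthritis, and over all probes the medians were 0.48 and 0.469. Relative to the 6-array mean of each gene, the 36 genes averaged 1.19, -0.71 and 0.15 on triptolide 1, 2 and 3, against -0.28, -0.38 and 0.03 on arthritis 1, 2 and 3. The count of positive differences depended on a single array: without triptolide 1 it was 12 of 36 (53.1% of all probes) with a median of -0.07, and without triptolide 2 it was 35 of 36 (54.0%) with a median of 0.84. Without arthritis 2, the array richest in muscle transcripts, it was 24 of 36 (45.7%) with a median of 0.27. Under other scalings it was 30 of 36 with normexp background correction (42.6%), 32 of 36 with quantile normalization (53.1%) and 32 of 36 with both (50.5%). By limma, 3 members were higher at an unadjusted p under 0.05 with normexp (2.36% of all probes) and 3 with normexp and quantile normalization (3.23%). That number was 11 without triptolide 2 (3.33%) and 7 with arthritis 2 and triptolide 2 left out together (4.85%), among them Gbp2, Gbp4, Gbp5, Irf1 and Igtp in both cases. Triptolide 2 was the lowest array for all 5 of these genes, so leaving it out raises their differences and narrows their triptolide spread. Both counts therefore partly restate where that array lies.

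**Figure D1:**
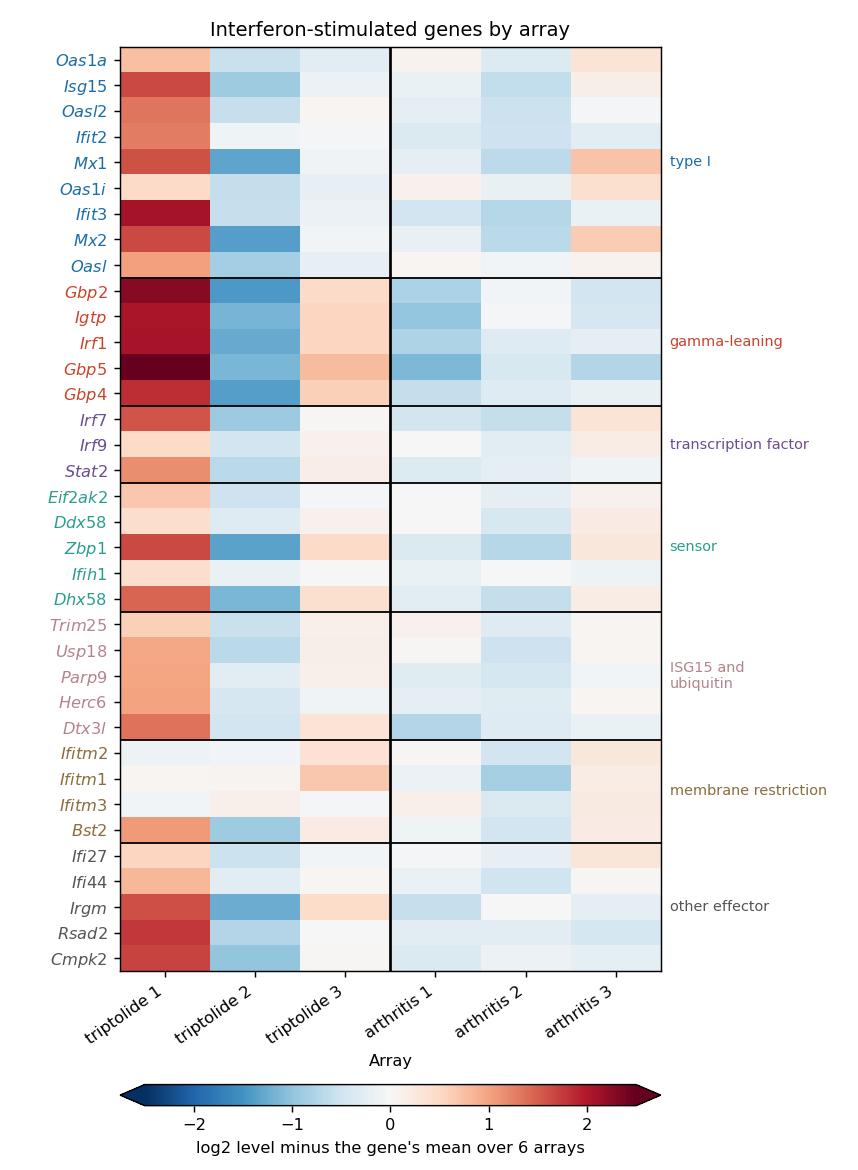
Each row is 1 of the 36 tested genes grouped by role, each column 1 of the 6 arrays (triptolide left, arthritis right), and the colour is the log2 level minus the mean of the gene over the 6 arrays. Triptolide 1 is the highest array for 33 genes and triptolide 2 the lowest for 27.

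Isg15, a ubiquitin-like protein that is attached to other proteins after interferon exposure, had levels of 4.75, 2.20 and 2.95 on triptolide 1 to 3, against 2.94, 2.49 and 3.24 on arthritis 1 to 3. Triptolide 1 was the highest and triptolide 2 the lowest of the 6, and the groups overlapped. The difference was 0.41 (SE 0.64, limma, 95% interval -1.14 to 1.97).

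The Ifit genes encode proteins that bind foreign RNA, and their probes lie close together on chromosome 1 of rn4, the build in the file headers (Ifit2 at chr1:238565078-238565137 and Ifit3 at chr1:238574983-238575042). Whether these positions are coding or untranslated was not analysed here. Ifit2 stood at 2.38, 1.00 and 1.08 with triptolide, against 0.74, 0.59 and 0.83 in arthritis. It was the 1 member of the 36 with every triptolide array above every arthritis array, a pattern that 4.77% of all probes showed. Its difference was 0.77 (SE 0.38, limma unadjusted p = 0.0906, adjusted p = 0.994). A second, dimmer Ifit2 probe differed by 0.72 (SE 0.49) with overlapping groups, since triptolide 3 lay at -2.28 and arthritis 3 at -2.19. Without triptolide 1 the difference of Ifit2 was 0.32. Ifit3 had levels of -0.52, -3.19 and -2.76 with triptolide, against -3.08, -3.32 and -2.77 in arthritis. Here triptolide 1 alone stood clear, 5.82-fold above the arthritis mean, and the difference of 0.90 had an SE of 0.69. Without triptolide 1 the difference of Ifit3 was 0.08.

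The Mx genes encode dynamin-like GTPases that block viral replication. Mx1 had levels of -0.16, -3.06 and -1.84 with triptolide, against -1.99, -2.40 and -1.04 in arthritis. Mx2 had levels of -1.05, -4.06 and -2.76 with triptolide, against -2.88, -3.36 and -2.05 in arthritis, and was well above background on 2 of 3 triptolide arrays. For both genes the triptolide arrays held the highest and the lowest value, with arthritis in between. Their differences were 0.12 (SE 0.76) for Mx1 and 0.14 (SE 0.77) for Mx2, and both were below 0 with normexp background correction.

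The Oas genes encode 2′-5′ oligoadenylate synthetases, which activate RNase L in cells that sense double-stranded RNA, and the Oasl genes encode related proteins. Oas1a stood at 3.97, 2.66 and 2.93 with triptolide, against 3.30, 2.88 and 3.55 in arthritis. Oas1i stood at -1.58, -2.65 and -2.26 with triptolide, against -1.95, -2.23 and -1.64 in arthritis. For both, triptolide 3 lay lower than arthritis 1 and arthritis 3. Oasl had levels of -1.74, -3.62 and -2.96 with triptolide, against -2.72, -2.83 and -2.68 in arthritis, a spread of 1.88 within triptolide beside 0.16 within arthritis. Oasl2 had levels of 3.11, 1.21 and 1.83 with triptolide, against 1.56, 1.26 and 1.75 in arthritis. The differences were -0.06 (SE 0.38) for Oas1a, -0.22 (SE 0.31) for Oas1i, -0.03 (SE 0.46) for Oasl and 0.53 (SE 0.48) for Oasl2. Oas1a, Oas1i and Oasl were 3 of the 4 members with a difference below 0, though Oas1a was above 0 with normexp, alone or with quantile normalization, and Oasl with both together. The fourth was Ifi27.

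Within triptolide the gamma-leaning genes were highest on triptolide 1 and lowest on triptolide 2, an order that the brightest probes of the type I genes also showed. Their swings were wider, with a range within triptolide of 3.19 to 3.72 against 1.07 to 3.01 for type I. Gbp2, Gbp4 and Gbp5 encode guanylate-binding proteins, large GTPases that attack the vacuoles of intracellular pathogens, and their probes lie between chr2:240442556-240442615 (Gbp5) and chr2:240541001-240541060 (Gbp2) of rn4, with Gbp4 at chr2:240508707-240508766. Cross-hybridisation between these related genes was not tested. Gbp2 had levels of 7.59, 3.89 and 5.80 with triptolide, against 4.53, 5.26 and 4.85 in arthritis. Triptolide 1 was 13.0-fold above triptolide 2, and arthritis lay between them. Gbp4 had levels of 0.14, -3.07 and -1.10 with triptolide, against -2.29, -2.01 and -1.88 in arthritis. Gbp5 had levels of 1.30, -2.42 and -0.49 with triptolide, against -2.40, -1.68 and -2.02 in arthritis. In each of the 3, triptolide 1 and 3 stood above all arthritis arrays and triptolide 2 below all of them. Gbp5 had the largest difference of the 36 members, 1.49 (SE 0.88, 95% interval -0.64 to 3.63, limma unadjusted p = 0.139), and was the 1 member at 2-fold or more, as 1.1% of all probes were. The differences were 0.88 (SE 0.88) for Gbp2 and 0.72 (SE 0.76) for Gbp4. Without triptolide 1 they were 0.58 for Gbp5 and -0.03 for Gbp2.

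Irf1, a transcription factor induced by interferon gamma, stood at 1.76, -1.56 and 0.23 with triptolide, against -1.07, -0.63 and -0.55 in arthritis. Igtp, an immunity-related GTPase known from mouse work on intracellular parasites, stood at 1.87, -1.33 and 0.36 with triptolide, against -1.14, -0.20 and -0.59 in arthritis. Both repeated the order of the Gbp and type I genes within triptolide. Their differences were 0.89 (SE 0.79) for Irf1 and 0.94 (SE 0.78) for Igtp.

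The 2 classes can be set side by side on each array. Relative to the 6-array mean of each gene, the 9 type I genes averaged 1.31, -0.76 and -0.13 on triptolide 1, 2 and 3, against -0.16, -0.48 and 0.21 on arthritis 1, 2 and 3. The 5 gamma-leaning genes averaged 2.16, -1.27 and 0.59 on triptolide 1, 2 and 3, against -0.85, -0.22 and -0.41 on arthritis 1, 2 and 3. Both classes were highest on triptolide 1 and lowest on triptolide 2, and they parted on triptolide 3, where the gamma-leaning average was above and the type I average within the range of arthritis. There the median gamma-leaning gene lay 0.98 above the arthritis mean and the median type I gene 0.0016 above it. On triptolide 3 all 5 gamma-leaning genes lay above all 3 arthritis arrays, as did 3 of 9 type I genes (29.2% of all probes). Another 2 type I genes lay below all 3 (20.1%), so the type I counts were near the shares of all probes. On triptolide 2, 5 of 5 gamma-leaning and 7 of 9 type I genes lay below all 3 arthritis arrays, as 28.6% of all probes did.

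**Figure D2:**
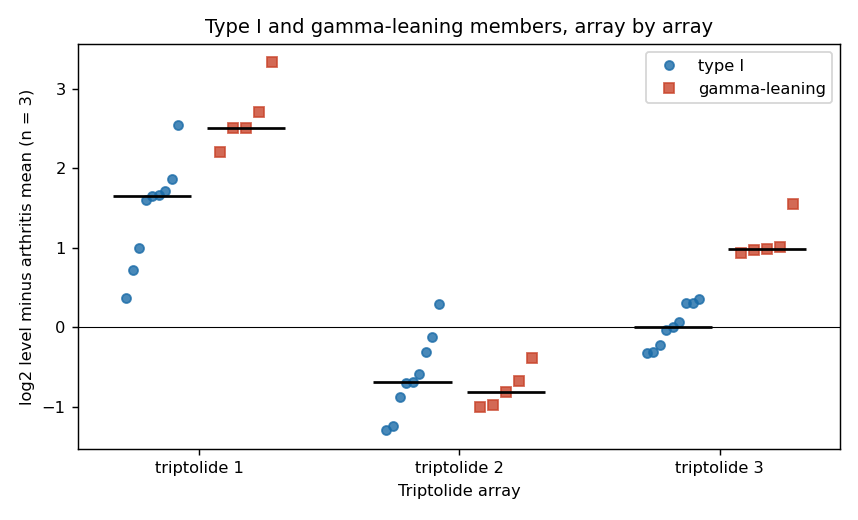
The vertical axis is the log2 level on each triptolide array minus the mean of the 3 arthritis arrays, with 1 point for each of the 9 type I genes (circles) and 5 gamma-leaning genes (squares), and bars at the class medians. The medians are 1.65 and 2.51 on triptolide 1, -0.68 and -0.81 on triptolide 2, and 0.0016 and 0.98 on triptolide 3.

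The type I average minus the gamma-leaning average was -0.84, 0.51 and -0.72 on triptolide 1, 2 and 3, against 0.69, -0.25 and 0.62 on arthritis 1, 2 and 3. The means were -0.35 ± 0.75 with triptolide and 0.35 ± 0.52 in arthritis (SD, n = 3 each), and the groups overlapped because triptolide 2 lay among the arthritis arrays and arthritis 2 among the triptolide range. The median difference was 0.14 over the type I genes, 6 of 9 above 0, and 0.89 over the gamma-leaning genes, 5 of 5 above 0. Of all probes, 53.9% were above 0. Type I minus gamma-leaning, these medians differed by -0.75, and leaving out 1 array at a time gave -1.15 to -0.46. Without arthritis 2 the type I median was -0.08 and without triptolide 1 it was -0.45, while the gamma-leaning median was 1.07 and 0.08 in the same 2 cases. The classes hold few genes that share their inducers, so these values are a description.

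Irf7, Irf9 and Stat2 encode factors that carry the interferon response in the nucleus, Irf9 and Stat2 as parts of the complex that binds the ISRE and Irf7 as an inducer of type I interferon genes. Irf7 had levels of 5.13, 2.65 and 3.59 with triptolide, against 3.08, 2.96 and 3.89 in arthritis. Irf9 had levels of 1.20, 0.23 and 0.82 with triptolide, against 0.70, 0.45 and 0.90 in arthritis. Stat2 had levels of -0.50, -2.34 and -1.51 with triptolide, against -2.02, -1.89 and -1.77 in arthritis. All 3 were highest on triptolide 1 and lowest on triptolide 2, and the swing was smallest for Irf9, with 0.97 between its triptolide arrays. The differences were 0.48 (SE 0.64) for Irf7, 0.07 (SE 0.28) for Irf9 and 0.44 (SE 0.45) for Stat2.

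The sensors detect viral nucleic acid in the cytoplasm. Eif2ak2, which encodes the RNA-activated kinase PKR, stood at 1.97, 0.77 and 1.25 with triptolide, against 1.31, 1.04 and 1.41 in arthritis. Ddx58, which encodes the RNA sensor RIG-I, stood at -0.01, -0.78 and -0.35 with triptolide, against -0.47, -0.85 and -0.24 in arthritis. Zbp1, which encodes a sensor of Z-form nucleic acid that can start cell death, stood at 0.47, -2.52 and -0.72 with triptolide, against -1.56, -1.91 and -0.92 in arthritis. Zbp1 swung most of the 5 sensors, 7.94-fold between triptolide 1 and triptolide 2. The differences were 0.08 (SE 0.32), 0.14 (SE 0.26) and 0.53 (SE 0.74) in that order, with Eif2ak2 below 0 under normexp with quantile normalization. Ifih1, which encodes the RNA sensor MDA5, differed by 0.20 (SE 0.19), and Dhx58, which encodes their regulator LGP2, by 0.47 (SE 0.64).

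In the ISG15 and ubiquitin systems, Trim25, a ubiquitin ligase for RIG-I, had levels of 3.59, 2.42 and 3.12 with triptolide, against 3.1, 2.67 and 3.04 in arthritis. Usp18, the protease that removes ISG15 and dampens type I receptor signalling, had levels of 1.67, 0.01 and 0.85 with triptolide, against 0.73, 0.17 and 0.76 in arthritis. Dtx3l, a ubiquitin ligase, had levels of -1.74, -3.59 and -2.75 with triptolide, against -3.83, -3.43 and -3.26 in arthritis. Arthritis 1 was the lowest array for Dtx3l, and triptolide 2 was the lowest for Trim25 and Usp18. The differences were 0.11 (SE 0.32) for Trim25, 0.29 (SE 0.43) for Usp18 and 0.81 (SE 0.46) for Dtx3l. Parp9, the partner of Dtx3l, differed by 0.55 (SE 0.34), and Herc6, known in mouse as the main ligase for ISG15, by 0.33 (SE 0.38).

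The membrane restriction factors were the exception to the common pattern. The Ifitm genes encode small membrane proteins that hinder the entry of viruses. Ifitm2 had levels of 6.76, 6.83 and 7.25 with triptolide, against 6.93, 6.41 and 7.18 in arthritis. Ifitm1 had levels of 6.61, 6.62 and 7.23 with triptolide, against 6.41, 5.73 and 6.74 in arthritis. Ifitm1 and Ifitm2 were highest on triptolide 3 and Ifitm3 on arthritis 3, and these were the 3 members not highest on triptolide 1. All 3 were lowest on arthritis 2, and their range within triptolide was 0.18 to 0.62, against 0.60 to 1.02 within arthritis. The differences were 0.53 (SE 0.32) for Ifitm1, 0.11 (SE 0.25) for Ifitm2 and 0.01 (SE 0.20) for Ifitm3, the last of these below 0 with normexp, alone or with quantile normalization. Bst2, which encodes tetherin, followed the common pattern, with a difference of 0.25 (SE 0.50) and 3.88-fold between triptolide 1 and triptolide 2.

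Among the other effectors, Ifi27 had levels of 5.05, 3.98 and 4.44 with triptolide, against 4.49, 4.31 and 4.81 in arthritis. Ifi44 had levels of 3.74, 2.63 and 2.95 with triptolide, against 2.74, 2.41 and 2.94 in arthritis. Rsad2, which encodes the antiviral enzyme viperin, had levels of 1.85, -0.66 and 0.08 with triptolide, against -0.21, -0.21 and -0.36 in arthritis. The arthritis arrays of Rsad2 agreed to within 0.15 while its triptolide arrays spanned 2.50. The differences were -0.05 (SE 0.30) for Ifi27, 0.41 (SE 0.32) for Ifi44 and 0.68 (SE 0.61) for Rsad2. Cmpk2, a mitochondrial nucleotide kinase, differed by 0.49 (SE 0.64), and Irgm, an immunity-related GTPase, by 0.55 (SE 0.69).

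**Figure D3:**
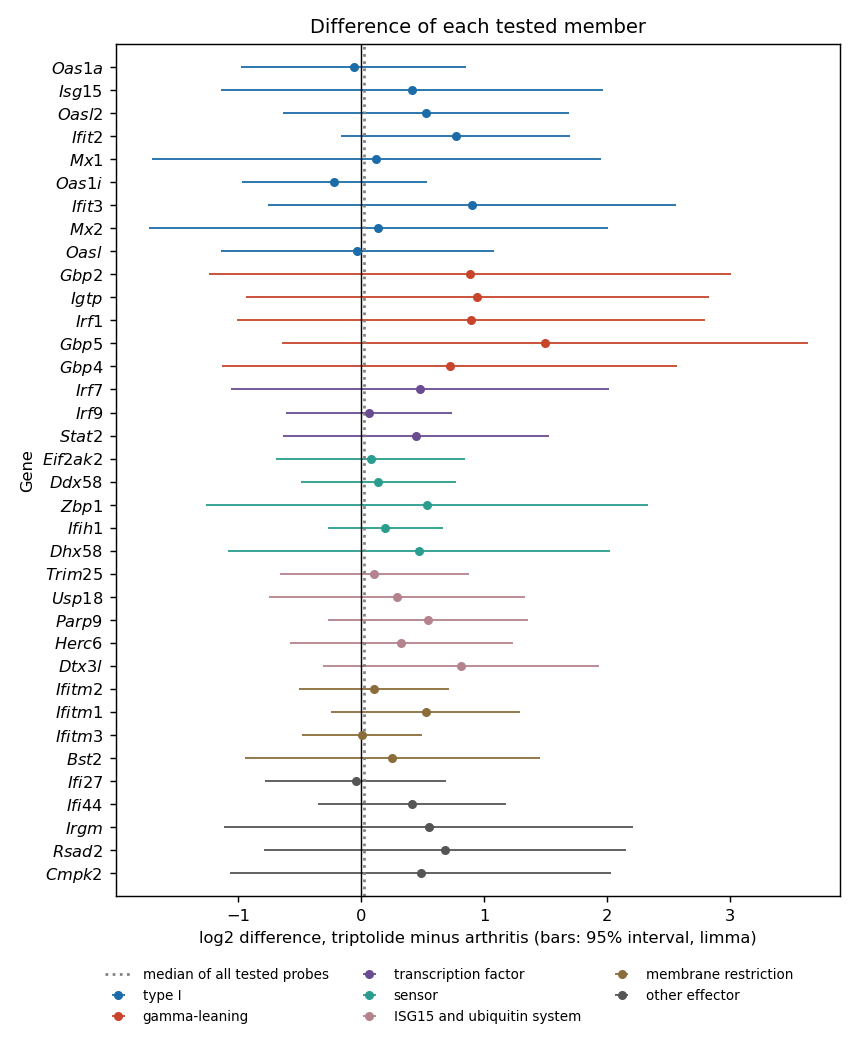
Points are the log2 difference of each of the 36 tested genes, triptolide minus arthritis (n = 3 each), coloured by role, with 95% intervals from limma and a dotted line at the median of all tested probes, 0.0226. All 36 intervals include 0, and the differences run between -0.22 and 1.49.

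For 9 genes more than 1 probe was on the array, and the brightest was used above. The probes of Bst2, Ddx58, Dhx58, Dtx3l, Eif2ak2, Ifi44 and Ifit2 differed in the same direction. Those of Usp18 differed by 0.29 and -0.19, and those of Rsad2 by 0.68 and -0.04, the lower value in each case from the dimmer probe. All tested probes of these genes were highest on triptolide 1 except the dimmer Rsad2 probe, which was well above background on 2 arrays of each group. For Ddx58 the dimmer probe differed by 0.78 and the brighter by 0.14.

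Among 60 related genes listed beside the members, 46 had a probe and 39 were tested. Of these 39, 35 had a difference above 0 (53.9% of all probes), with a median of 0.37. The median was 0.11 without triptolide 1, 0.60 without triptolide 2 and 0.20 without arthritis 2, with 27, 38 and 32 of the 39 above 0 in that order. Of all probes, 53.1%, 54.0% and 45.7% were above 0 in the same cases. By limma 0 of the 39 passed an adjusted p under 0.05. At an unadjusted p under 0.05, 1 was higher, near the 2.0% of all probes that were, namely Irf2 at 0.42 (SE 0.16, limma unadjusted p = 0.0353). Irf2 encodes a factor that competes with IRF1 for its sites.

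Ifng, which encodes interferon gamma, had levels of -0.85, -5.90 and -2.76 on triptolide 1 to 3, against -4.58, -4.34 and -3.44 on arthritis 1 to 3. It was well above background on 2 of 3 triptolide arrays and all 3 arthritis arrays. Its triptolide arrays stood in the same order as those of the gamma-leaning and the type I genes. The lowest level was -5.90 on triptolide 2, so the low end of this order and the difference may rest on a value near background. The difference was 0.95 (SE 1.21), and it was -0.21 without triptolide 1. The type I ligand genes Ifnb1, Ifna1, Ifna4 and Ifne were not well above background on any array. All 4 tested receptor genes had a difference above 0 (53.9% of all probes), between 0.03 for Il10rb and 0.39 for Ifnar1, with a median of 0.18. That median was 0.29 without triptolide 2, 0.10 without triptolide 3 and 0.02 without arthritis 2, with 2 of the 4 above 0 in each of the last 2 cases.

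Of 16 tested signalling genes, 13 were above 0 (53.9% of all probes) with a median of 0.24. That median was 0.08 without triptolide 1, 0.44 without triptolide 2 and 0.13 without arthritis 2. The next list held feedback inhibitors and other brakes (Socs1, Socs3, Pias1, Ptpn2 and Ptpn6) together with Isg20, an interferon-stimulated gene. Of its 6 genes, 5 were above 0 (53.9% of all probes) with a median of 0.35. That median was 0.15 without triptolide 1 and 0.22 without arthritis 2. The largest difference among the brakes was 1.16 (SE 0.88) for Socs1, an inhibitor of the Janus kinases that was well above background on 2 of 3 triptolide arrays. Without triptolide 1 the difference of Socs1 was 0.16.

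Other genes known to be induced by interferon gamma also varied widely within triptolide, with ranges of 1.04 for Icam1 to 6.43 for Cxcl11. All 12 tested ones had a difference above 0 (53.9% of all probes), with a median of 0.78, and all 12 lay above all 3 arthritis arrays on triptolide 3 (29.2%). Without triptolide 1 the median was 0.12 and 9 of 12 were above 0 (53.1% of all probes). The values below 0 were -0.32 for Cxcl9, -0.10 for Irgm2 and -0.01 for Psmb8. Without triptolide 2 the median was 1.55. Cxcl10, a chemokine that draws T cells, had levels of 5.77, 0.97 and 3.80 with triptolide, against 1.59, 2.52 and 2.51 in arthritis. Cxcl11, its relative, had levels of 4.18, -2.25 and 1.68 with triptolide, against -1.07, 0.38 and -0.34 in arthritis. For both, triptolide 1 and 3 were above arthritis and triptolide 2 below it, and the differences were 1.30 (SE 1.15) and 1.55 (SE 1.54). Without triptolide 1 they were 0.18 for Cxcl10 and 0.06 for Cxcl11. Tap2, a subunit of the antigen peptide transporter, was the 1 gene of the 12 with every triptolide array above every arthritis array, as 4.77% of all probes were. It stood at 3.20, 1.11 and 1.57 with triptolide, against 0.98, 1.01 and 0.86 in arthritis, a difference of 1.01 (SE 0.52) that was 0.40 without triptolide 1.

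In bulk tissue, fewer cells of a type and less RNA per cell cannot be told apart, and leukocyte markers also varied between arrays. The 14 tested T and NK cell markers (of 16 listed) averaged 0.45, -0.94 and 0.56 on triptolide 1, 2 and 3, against 0.23, -0.69 and 0.39 on arthritis 1, 2 and 3. Their summed linear level ranged between 12.0 and 32.3 with triptolide and between 12.8 and 30.5 in arthritis, with Ncr1 and Tbx21 not well above background on any array. The T and NK cell averages were lowest on triptolide 2 and arthritis 2 and highest on triptolide 3. The 11 tested macrophage markers (of 12 listed) averaged 0.15, -0.46 and 0.43 on triptolide 1, 2 and 3, against -0.01, -0.41 and 0.29 on arthritis 1, 2 and 3, and their summed level ranged between 436.0 and 787 with triptolide and between 441 and 726 in arthritis, with Marco not well above background on any array. The 7 tested neutrophil markers (of 12 listed) averaged 0.82, -0.47 and 0.40 on triptolide 1, 2 and 3, against -0.34, -0.53 and 0.12 on arthritis 1, 2 and 3, and their summed level ranged between 4.56 and 19.6 with triptolide and between 4.40 and 7.38 in arthritis, with Elane, Cxcr2, Ngp and Mmp8 not well above background on any array. The 4 tested markers of plasmacytoid dendritic cells (of 7 listed), a source of type I interferon, averaged 0.89, -0.58 and 0.38 with triptolide, against 0.13, -1.0 and 0.18 in arthritis, and their summed level ranged between 22.2 and 30.9 with triptolide and between 21.2 and 26.5 in arthritis. One of these 4, Bst2, is itself a member. The part of these cell types, of nerve transcripts on triptolide 2 and of the muscle transcripts that varied across arrays in the result was not tested.

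**Figure D4:**
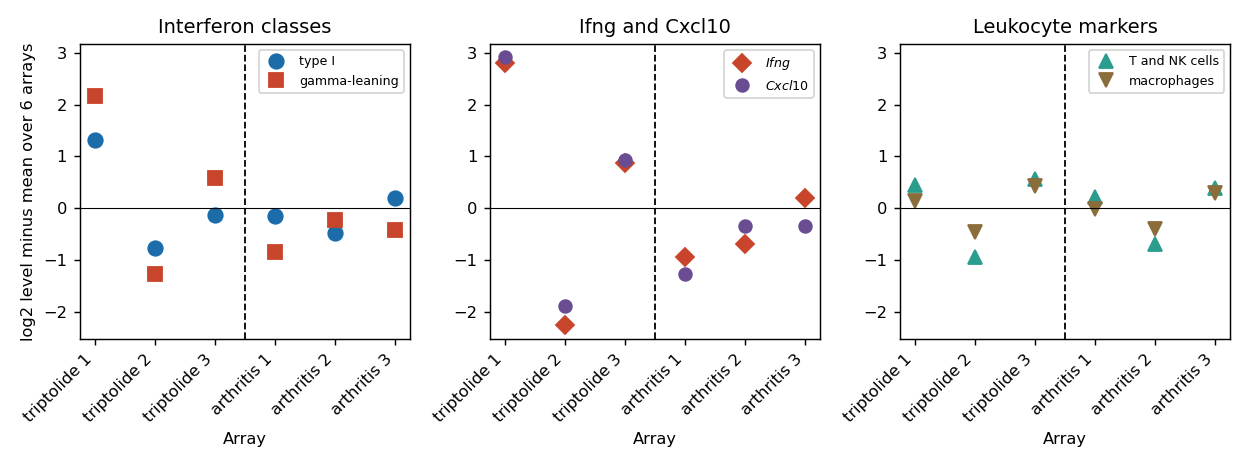
Each panel shows, for the 6 arrays (triptolide left of the dashed line, arthritis right), the log2 level minus the mean over 6 arrays: the averages of the 9 type I and 5 gamma-leaning genes, the levels of Ifng and Cxcl10, and the averages of 14 T and NK cell and 11 macrophage markers. Ifng, Cxcl10 and the averages of both interferon classes are highest on triptolide 1 and lowest on triptolide 2. Ifng was well above background on 2 of 3 triptolide arrays. Both sets of leukocyte markers shown are highest on triptolide 3. Neutrophil and plasmacytoid dendritic cell markers, not shown, averaged highest on triptolide 1 (0.82 and 0.89) and lowest on arthritis 2.

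Slide and treatment cannot be fully told apart, because triptolide 1 is the only treated array on the slide that carries arthritis. Within slide 1, that is triptolide 1 against the 3 arthritis arrays, 34 of 36 genes were above 0 (50.9% of all probes), the median difference was 1.49, and 26 genes were higher at an unadjusted p under 0.05 by limma (2.82% of all probes). With slide as a block in the fit the median was also 1.49 and the count 22 (2.27%), and 0 genes passed an adjusted p under 0.05 in either fit. In both fits the difference comes from triptolide 1 alone, the array on which 33 members were highest, so these counts restate how far that array lies from arthritis. Within slide 1 the treated side has no spread of its own, and its single array is assumed to vary as the arthritis arrays do. The other 2 triptolide arrays shared slide 2, and their averages over the 36 genes were -0.71 on triptolide 2 and 0.15 on triptolide 3. The part of slide in the spread between triptolide arrays was not tested.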

How the data were processed

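Synovial RNA was measured on 6 Agilent rat arrays of 1 colour, 3 from triptolide-treated and 3 from saline-treated arthritic rats, grouped by their titles. Per the labels' protocols, 0.5 ug of RNA was labelled with Cy3. The scanner output deposited by the authors gives a linear intensity for every spot after background subtraction, without any adjustment across arrays. It was written by Agilent Feature Extraction 10.7.3.1 per the file headers, though the submitters' processing notes list version 9.1. A table deposited by the authors holds log2 values for 167 rows, with column medians of 4.68, 4.74 and 4.84 for triptolide 1 to 3 and 4.94, 5.54 and 4.93 for arthritis 1 to 3. It tracked the log2 intensity of its own arrays (r of 0.9998 or more across probes), how it was normalized is not given in the sources used here, and it held 1 probe of 1 member.

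From the scanner files, controls and spots marked as outliers were dropped, processed intensities were converted to log2, each array was shifted so that the 75th percentile of its non-control spots was 0, and repeated spots of a probe were averaged. Probes well above background on at least 3 of 6 arrays (25772) were fitted by lmFit and eBayes of limma 3.58.1 (R 4.3.3), with Benjamini-Hochberg adjustment over all of them. The brightest tested probe stands for a gene. All members may be named, and values per array are given for type I and gamma-leaning genes and, in each other role, for the 2 brightest members and the one with the largest difference. Of the related and marker genes, those named in the text were picked after their values were seen. Members and lists were chosen with earlier results of these data known. Class medians and counts are descriptions and carry no test. The fit was tested on simulated arrays that gave every probe the same spread, so that test does not cover genes as variable within triptolide as these members. The precision is limited by the number of arrays, 3 per group. The alternatives were other background corrections and scalings, other filters on dim probes, slide and replicate number as blocks, single arrays left out, arthritis 2 and triptolide 2 left out together, all probes of a gene averaged, and naming by RefSeq symbol. Promoter sequences come from RefSeq (GRCr8) and probe positions from the coordinates given for each spot in the scanner output (rn4, the build in the file headers). No coordinates were converted between the builds. Values of some listed genes are not reported here. Leaving out single arrays for the related genes was added after seeing the data.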

Additional observations from a re-analysis of the deposited data

How the results depend on the processing

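No member passed an adjusted p under 0.05 by limma in the main analysis or in any alternative run. The number of members higher at an unadjusted p under 0.05 was 0 in the main analysis, 3 with normexp, 3 with normexp and quantile normalization, 22 with the slide as a block, 26 within slide 1, 7 with arthritis 2 and triptolide 2 left out together, and 0 to 11 with 1 array left out, the 11 being without triptolide 2. The median difference of all members (0.43) was 1.49 in both of these slide settings and -0.07 to 0.84 with 1 array left out. The type I median (0.14) was 1.65 in both slide settings and -0.45 to 0.86 with 1 array left out. The gamma-leaning median (0.89) was 2.51 in both slide settings and 0.08 to 1.76 with 1 array left out. Type I minus gamma-leaning (-0.75) was -1.42 with arthritis 2 and triptolide 2 left out together and -1.15 to -0.46 with 1 array left out. In the slide settings triptolide 1 is the one treated array that counts. The settings with 11 and 7 members leave out triptolide 2, the lowest array for most members. The cause of the other shifts was not tested.

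Replicate numbers did not pair the arrays: deviations of same-numbered arrays correlated at -0.16, -0.13 and 0.0008 across probes, and with the replicate number as a block 0 members passed either threshold (lowest adjusted p 0.911), with medians as in the main analysis. Differences of single members changed sign for 20 members without triptolide 1, 8 without arthritis 2, 5 without triptolide 2 and 6 in each slide setting, with 0 of these values past the adjusted threshold. Naming by RefSeq symbol added Ifi44l and gave 33 of 37 members above 0. The authors' deposited table could be tried for 1 probe of Eif2ak2, which differed by 0.08 there.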
